A study of Mus musculus with 12 samples.

Results

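The genes described here are 38 genes that carry glucose into the cell, break it down to pyruvate and lactate, or divert it into the pentose phosphate pathway. They were chosen by name, as the mouse Entrez genes of the enzymes, isoforms and transporters of these routes, out of 27179 genes in the deposited count table, by a rule that uses no measured value. Earlier results of these data were known when the choice was made. All 38 were in the table and all 38 passed the filter on low counts. By role they were 5 membrane transporters, 12 genes of upper glycolysis (from hexokinase to triose phosphate isomerase), 7 of lower glycolysis (from glyceraldehyde phosphate dehydrogenase to pyruvate kinase), 6 that act on pyruvate and lactate, the regulator Hif1a, and 7 of the pentose phosphate pathway.

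Glycolysis splits glucose into pyruvate with a net gain of ATP. Pyruvate is then either reduced to lactate by lactate dehydrogenase, which restores the NAD that glycolysis needs, or passed to mitochondria through the pyruvate dehydrogenase complex, which PDH kinases hold back. The pentose phosphate pathway branches off after hexokinase and supplies NADPH for biosynthesis and ribose phosphate for nucleotides. Resting lymphocytes use little glucose, and lymphocytes that have been activated to divide are known to take up more of it and to release lactate. Several steps have more than 1 isoform, each from its own gene.

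RNA-Seq was carried out on B cells from the spleens of male C57BL/6 mice of 6 to 12 weeks, with 2 libraries of biological duplicates for each of 6 stages. Naive resting B cells were untreated and were sorted by surface markers, among them IgM and IgD. All other cells were isolated by negative selection and cultured with lipopolysaccharide (LPS) from Salmonella typhosa at 25 µg/ml, a bacterial product that activates B cells through a Toll-like receptor. Undivided CD69+ cells were sorted at 3, 10 and 33 h. On day 4, expanded B cells were harvested as CD22+CD138- and plasmablasts, the antibody-secreting cells, as CD22-CD138+. Per the methods, the cultures for day 4 were kept at a lower cell density than those sorted at 3, 10 and 33 h. The latter were labelled with CellTrace Violet, a dye that shows division. The naive and the activated cells thus differ in how they were isolated and in time in culture as well as in LPS. Those of 3, 10 and 33 h also differ from naive cells in the dye and in the sort on CD69. These cannot be told apart. Nor can culture density be told apart from stage between 33 h and day 4. The sources used here do not say whether the duplicates came from separate mice, so p-values measure the spread between these libraries.

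Total counts per library ran from 23026619 to 60585587, for most libraries more than the number of read pairs given in the methods, and whether a count is a read or a pair is not given in the sources used here. If single reads were counted, the counting intervals given below are too narrow. In sum, B cell markers were highest in naive cells and plasmablast markers in plasmablasts: 9 B cell markers summed to between 14540 and 14830 CPM (counts scaled to the library size) in naive cells and 2096 to 2147 in plasmablasts, and 6 plasmablast markers summed to 16400 to 16910 CPM in plasmablasts. Jchain alone gave 12640 and 11730 of these. At 3 h the 6 summed to 2092 to 2684 CPM, where Irf4 alone gave 2588 and 1952. The 5 activated B cell markers summed to 138.7 to 150.1 CPM in naive cells and 2443 to 2682 at 3 h, where Myc alone gave 1560 and 1359. Of the 5 markers, Cd69 was lower at 33 h (26.2 and 22.9 CPM) than in naive cells (50.4 and 45.5), although the 33 h cells were sorted as CD69+. Markers of other cell types were higher in the naive libraries than at 3 h. In naive cells, 10 myeloid markers summed to 128.8 and 289.2 CPM and 8 erythroid markers to between 147.3 and 197.8 CPM, against 2.56 to 4.88 and 0.391 to 1.001 CPM at 3 h, where Cd14, S100a8, S100a9, Mpo and Slc4a1 were at 0. In plasmablasts 9 T cell markers summed to 66.7 and 73.4 CPM, of which Cd28 alone gave 64.3 and 71.6, and Cd3e and Cd8a were at 0.

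Levels are given as RPKM, counts scaled to the exon length of the gene and to the library size after TMM normalization, so that genes can be compared per length. They are relative to the rest of each library: a change in RNA per cell was not measured, and fewer cells that express a gene cannot be told apart from less of its RNA per cell. Summed over the 38 genes, the level in naive cells was 1975 ± 47.4 RPKM (mean ± SD, n = 2 here and below). The sum was 2436 ± 83.6 RPKM by 3 h, 3596 ± 71.8 by 10 h and 4049 ± 356 by 33 h, with 4212 ± 45.3 in expanded cells and 3707 ± 61.0 in plasmablasts. As a share of all counts the 38 genes took 0.406% in naive cells, 0.900% in expanded cells and 0.604% in plasmablasts. The libraries of different stages did not overlap in summed level, apart from 33 h, whose libraries at 3798 and 4300 RPKM spanned both expanded libraries.

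**Figure D1:**
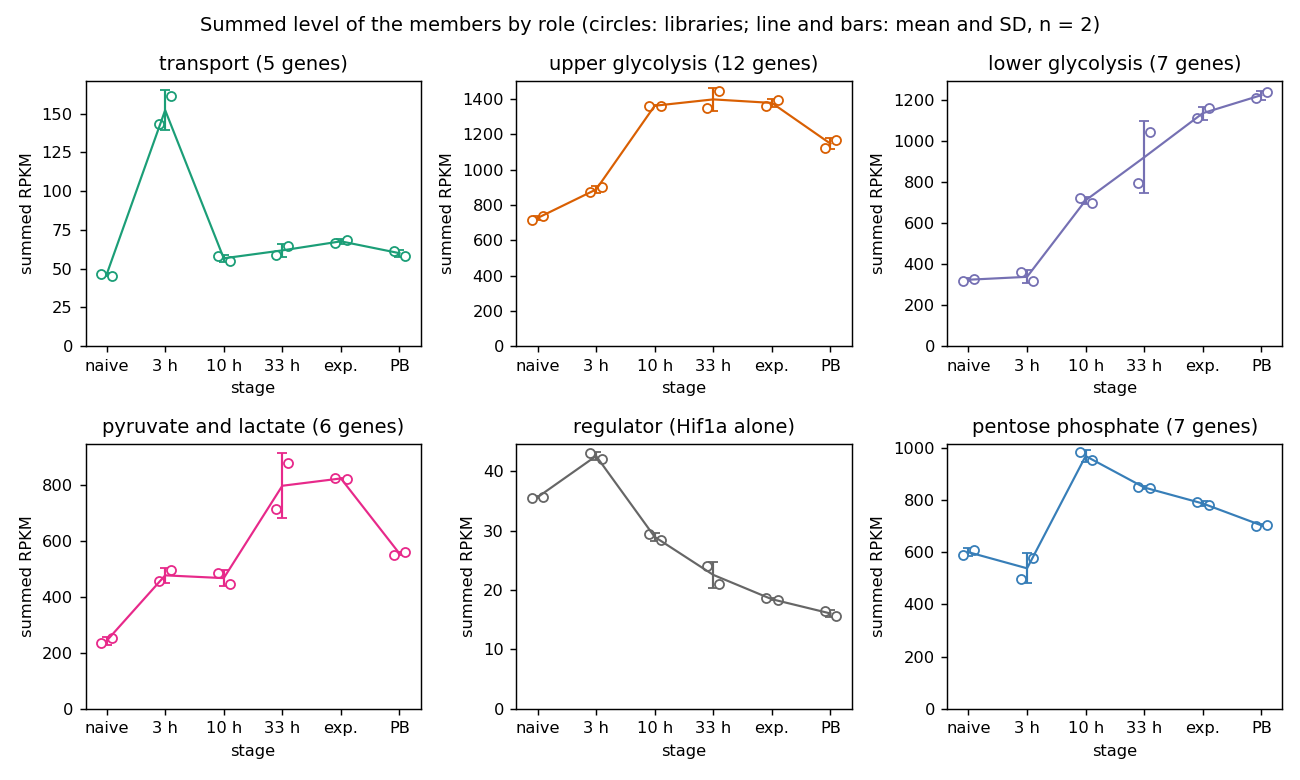
Summed level of the member genes of each role, in RPKM on linear axes from 0, at the 6 stages; circles are libraries, lines and bars are the mean and SD of 2. Transport was highest at 3 h with a mean of 152.2 RPKM, the pentose phosphate genes at 10 h with 968.3, and lower glycolysis in plasmablasts with 1226, where Pkm alone gave 905.9.

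The roles followed different courses. From 46.1 ± 0.91 RPKM in naive cells, the sum over the 5 transporters reached 152 ± 12.8 by 3 h and was back to 56.6 ± 2.18 by 10 h. Lower glycolysis stood at 324 ± 7.34 RPKM before LPS and 338 ± 32.0 after 3 h of it, then at 712 ± 18.3 by 10 h and 1226 ± 22.0 in plasmablasts. The pentose phosphate genes were at 538 ± 57.1 RPKM at 3 h, 968 ± 21.8 at 10 h and 703 ± 3.15 in plasmablasts. Transport thus peaked at 3 h and the pentose phosphate genes at 10 h. The higher sum of lower glycolysis in plasmablasts than in expanded cells went with Pkm, whose mean was 906 RPKM against 699, while the median log2 fold change of the 7 genes at that step was -0.23. As a share of counts, lower glycolysis was highest in expanded cells, at 0.247% against 0.213% in plasmablasts.

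Counted gene by gene, the highest mean level fell in the naive stage for 6 of the 38 genes, in that of 3 h for 4, of 10 h for 8 and of 33 h for 7, and in expanded cells for 8 and plasmablasts for 5. The lowest level fell in naive cells for 15 genes and at 3 h for 12. Aldoa, which encodes the main aldolase, had the highest mean of the set in naive cells (322 RPKM) and still did by 3 h (596) and 10 h (901). Ldha led at 33 h with 696 RPKM, although its libraries overlapped those of Aldoa, and Pkm, the pyruvate kinase gene, led in plasmablasts at 906 RPKM.

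**Figure D2:**
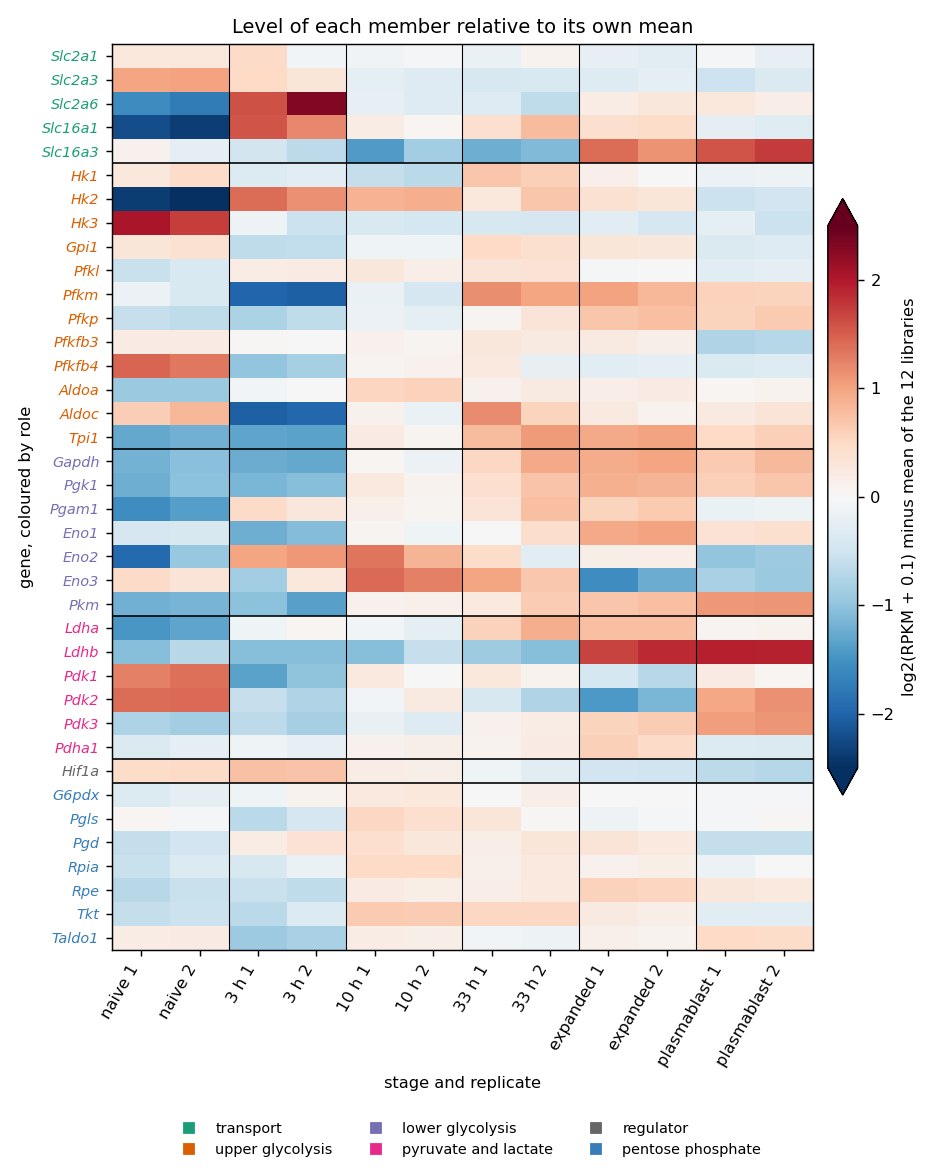
Heat map of log2(RPKM + 0.1) for the 38 genes (rows, grouped and coloured by role) in the 12 libraries (columns), each gene centred on its own mean; red is above and blue below that mean. Naive columns are blue for Hk2, Slc16a1 and Slc2a6 and red for Pfkfb4, Pdk1 and Pdk2, and columns from 10 h on are mostly above the mean for Tpi1, Gapdh, Pgk1 and Pkm.

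Each stage was compared with the next, and plasmablasts with naive cells, using edgeR's glmTreat, which asks whether a change exceeds 1.5-fold, at an adjusted p of 0.05 over all 13207 genes tested. From naive cells to 3 h, 8 of the 38 genes rose, where 20.9% of all tested genes rose, and 8 fell, where 24.2% of all fell, so that both counts lay near the background. From 3 h to 10 h, 15 rose against a background of 17.2% and 2 fell against 13.3%. The median log2 fold change of the 38 genes at that step was 0.52, beside 0.02 over all genes tested, and without the 2 genes at the floor in both stages it was the same value over 36 genes. From 10 h to 33 h, 4 rose (background 10.0%) and 0 fell (background 4.43%). From 33 h to expanded cells, 2 rose (background 6.94%) and 1 fell (background 3.60%). From expanded cells to plasmablasts, 1 rose (background 14.1%) and 4 fell (background 12.1%). Across the whole course from naive cells to plasmablasts, 17 rose (background 26.5%) and 7 fell (background 23.2%), with a median of 0.33 beside 0.03 over all genes.

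The set therefore went up mainly between 3 h and 10 h, while the step to 3 h moved it in both directions: there the median of the 38 genes was -0.06, beside -0.03 over all genes. For the 0 falls from 10 h to 33 h by glmTreat, 1 member had an unadjusted p under 0.05, DESeq2's Wald test called 0, and the quasi-likelihood F-test, which asks for a change of any size, called 8. Of all 13207 genes tested, DESeq2's Wald test called 279 down at that step and the F-test 2932. When libraries were scaled by their size only, without TMM, the median of all genes became -0.24 by 3 h, 0.35 by 10 h, -0.38 from expanded cells to plasmablasts and -0.25 over the whole course, and that of the members -0.28, 0.85, -0.54 and 0.05. The members' calls became 6 up and 11 down, 20 up and 2 down, 1 up and 12 down, and 14 up and 9 down at these. All genes then split into 2149 up and 3838 down by 3 h (2755 and 3192 with TMM), 3540 up and 1027 down by 10 h (2267 and 1760), 1246 up and 3025 down from expanded cells to plasmablasts (1857 and 1603), and 2847 up and 3960 down over the whole course (3506 and 3068).

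**Figure D3:**
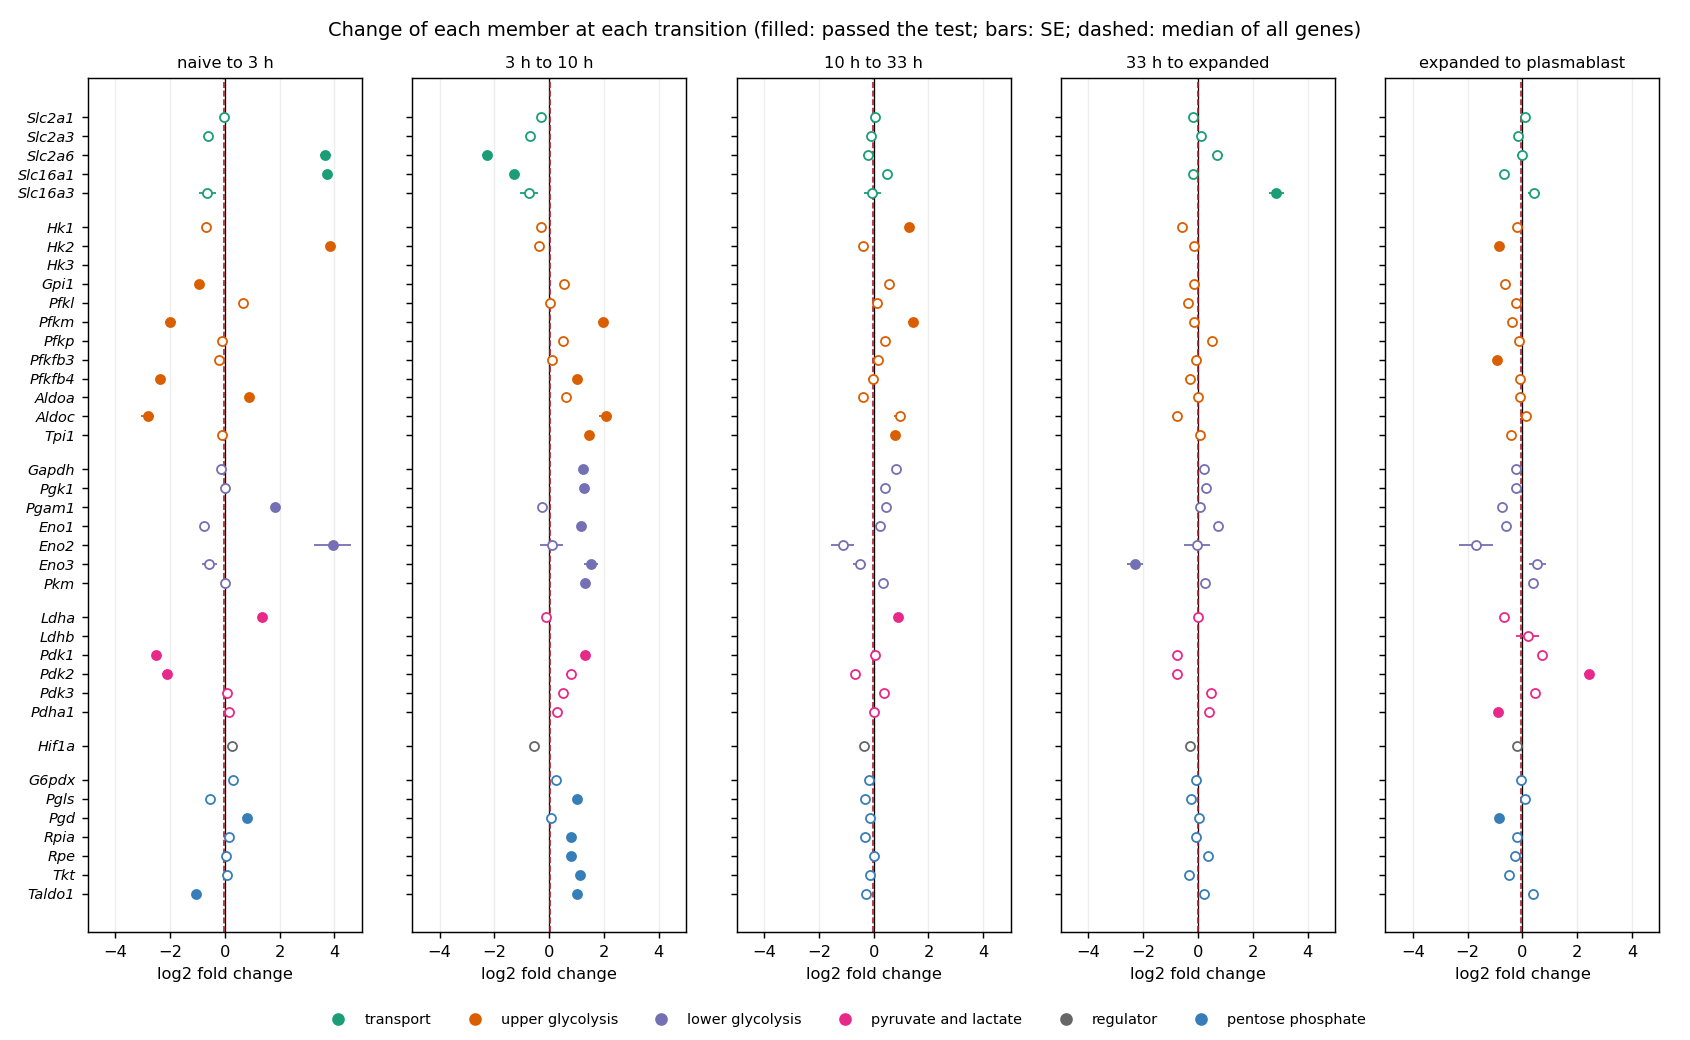
Log2 fold change with SE (bars) of each gene at the 5 consecutive steps, later stage against earlier; filled points passed the glmTreat test and the dashed line is the median of all genes tested. Hk3 and Ldhb have no point where a stage was at the floor. Filled points lie on both sides of 0 in the step to 3 h and, apart from Slc2a6 and Slc16a1, to the right of it in the step to 10 h.

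Promoters were searched because 8 members rose within 3 h. In RefSeq, on GRCm38.p6 (mm10), 37 of the 38 genes have a promoter entry, and the 250 bases before each start were searched on both strands for ACGTG, the core of the hypoxia response element, which the palindrome CACGTG, the E-box, holds on each strand. Counted per gene, ACGTG was found in 40.5% of the 37 members and 24.9% of the tested genes with an entry. Counted per promoter, it was found in 34.6% of those of members, 21.5% of those of tested genes and 16.6% of all. CACGTG was found in 16.2% of the members and 9.81% of the tested genes, per gene. Among the members that fell by 3 h, Hk3, Pdk2 and Pfkm held ACGTG in at least 1 listed promoter. Aldoc, Pdk1, Pfkfb4, Taldo1 and Gpi1, which also fell, held none. Whether the motif goes with the direction of change was not tested. Of the 8 members that rose by 3 h, 5 held ACGTG in at least 1 listed promoter (Hk2, Slc16a1, Pgam1, Ldha and Aldoa) and Slc2a6, Eno2 and Pgd held none. The promoters of the 4 largest rises among these, each with a match, are shown so that the position of each match can be seen, with the matched letters in capitals and the gene start following the last base.
Hk2, chr6:82774455-82774704, minus strand: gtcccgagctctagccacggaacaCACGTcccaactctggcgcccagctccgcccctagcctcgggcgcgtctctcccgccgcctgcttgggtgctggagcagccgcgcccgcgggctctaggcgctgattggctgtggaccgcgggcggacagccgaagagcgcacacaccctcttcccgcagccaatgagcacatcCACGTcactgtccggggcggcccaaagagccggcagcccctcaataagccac
Slc16a1, chr3:104638414-104638663, plus strand: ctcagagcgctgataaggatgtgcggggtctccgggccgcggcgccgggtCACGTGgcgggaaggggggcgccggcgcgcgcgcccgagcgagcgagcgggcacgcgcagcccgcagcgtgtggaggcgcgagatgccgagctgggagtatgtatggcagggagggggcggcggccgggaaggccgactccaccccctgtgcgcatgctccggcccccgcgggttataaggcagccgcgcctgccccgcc
Pgam1, chr19:41911621-41911870, plus strand: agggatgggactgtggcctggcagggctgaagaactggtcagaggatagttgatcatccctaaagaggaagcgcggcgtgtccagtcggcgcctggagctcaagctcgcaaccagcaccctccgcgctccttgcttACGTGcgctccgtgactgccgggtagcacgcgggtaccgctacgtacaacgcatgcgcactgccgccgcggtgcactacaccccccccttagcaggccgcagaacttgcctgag
Ldha, chr7:46845554-46845803, plus strand: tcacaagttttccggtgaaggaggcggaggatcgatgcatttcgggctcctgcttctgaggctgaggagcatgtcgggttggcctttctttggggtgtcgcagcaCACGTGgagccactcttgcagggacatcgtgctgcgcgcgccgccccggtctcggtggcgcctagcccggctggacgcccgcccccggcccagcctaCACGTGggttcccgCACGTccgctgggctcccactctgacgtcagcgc

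The Ldha window held 5 matches on the 2 strands, 4 of them from 2 E-boxes whose outer base lay 145 and 48 bases before the start. Slc16a1 held a single E-box at 200 bases, Pgam1 a single ACGTG at 114, and Hk2 matches at 226 and 52. Ldha has a further listed start, whose promoter held no match. The bases just after the Pgam1 and Ldha starts shown were not found in a GENCODE M21 transcript of the gene, so these starts rest on RefSeq. A match describes the letters, and binding was not measured here.

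The early peak of transport came from 2 of its 5 genes. Slc2a6 encodes a hexose carrier that is found on lysosomal membranes. Its level was 6.56 and 5.79 RPKM in the naive libraries, 59.5 and 97.4 in those of 3 h, 17.0 and 15.6 in those of 10 h, 15.8 and 12.5 in those of 33 h, 22.4 and 24.0 in the expanded and 23.6 and 22.0 in the plasmablast libraries. Both 3 h libraries stood above all others, and they differed from each other by more than any other stage did. The rise to 3 h was 3.67 on the log2 scale (SE 0.21, glmTreat adjusted p = 4.79e-08), and by 10 h the gene fell by 2.27 (SE 0.19, adjusted p = 7.25e-06).

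Slc16a1 encodes the monocarboxylate transporter that moves lactate and pyruvate across the plasma membrane with a proton. It was at 3.41 and 3.08 RPKM in the naive libraries, then 48.5 and 37.5 (3 h), 18.5 and 16.6 (10 h), 21.6 and 27.9 (33 h), 21.4 and 22.2 (expanded) and 13.9 and 13.2 (plasmablast). Every activated library was above both naive libraries. The gene rose 13.2-fold to 3 h (log2 3.73, SE 0.15, adjusted p = 1.01e-09), fell by 1.29 to 10 h (SE 0.14, adjusted p = 0.000142), and was still 2.06 higher in plasmablasts than in naive cells (SE 0.15, adjusted p = 2.45e-07).

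Slc16a3 encodes the related exporter that is known from highly glycolytic tissue, and it was a late gene here. It stood at 0.705 and 0.543 RPKM in the naive libraries, then 0.444 and 0.374 (3 h), 0.181 and 0.310 (10 h), 0.222 and 0.248 (33 h), 1.87 and 1.52 (expanded) and 2.11 and 2.398 (plasmablast). The day 4 libraries all exceeded the earlier ones, and the rise from 33 h to expanded cells was 2.86 (SE 0.27, adjusted p = 2.4e-05). Even at its highest mean of 2.26 RPKM it gave 14.3% of the summed RPKM of the pair, with Slc16a1 giving the rest.

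The plasma membrane glucose carriers moved less. Slc2a1, the basal carrier, was at 20.5 and 20.4 RPKM (naive), 23.7 and 16.3 (3 h), 16.0 and 16.4 (10 h), 15.2 and 18.2 (33 h), 14.7 and 14.3 (expanded) and 16.4 and 14.8 (plasmablast). It passed the test at no step, and 4 of the 5 neighbouring pairs in its order of stages overlapped. Slc2a3, a carrier with high affinity for glucose, was at 15.6 and 15.7 RPKM in the naive libraries, 11.1 and 9.60 in those of 3 h, 6.58 and 6.19 in those of 10 h, 5.91 and 5.93 in those of 33 h, 6.18 and 6.68 in the expanded and 5.45 and 6.03 in the plasmablast libraries. No consecutive step of Slc2a3 passed the test, and from naive cells to plasmablasts it fell by 1.45 (SE 0.11, adjusted p = 9.57e-07). Of the summed RPKM of these 3 carriers, Slc2a6 made up 14.6% ± 1.09 in naive cells, 71.1% ± 11.2 at 3 h and 51.7% ± 0.39 in plasmablasts.

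The hexokinases trap glucose in the cell by phosphorylating it. Hk2, the inducible isoform on the mitochondrial surface, was at 1.33 and 1.15 RPKM in the naive libraries, then 19.3 and 16.3 (3 h), 13.5 and 13.9 (10 h), 8.87 and 11.9 (33 h), 9.51 and 9.06 (expanded) and 5.03 and 5.22 (plasmablast). It rose 14.3-fold to 3 h (log2 3.84, SE 0.15, adjusted p = 8.6e-10), and its level was lower at each later stage, with overlap only between 33 h and expanded cells. Its fall of 0.86 from expanded cells to plasmablasts (SE 0.14, adjusted p = 0.0353) lost the call when any of the 4 libraries was left out, and under 3 other settings (adjusted p up to 0.461 over these).

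Hk1, the constitutive isoform, was at 31.4 and 35.8 RPKM (naive), 20.4 and 21.5 (3 h), 17.3 and 16.3 (10 h), 42.2 and 39.2 (33 h), 28.2 and 26.1 (expanded) and 23.6 and 23.9 (plasmablast). Ordered by level, no neighbouring stages overlapped. The rise from 10 h to 33 h was 1.276 (SE 0.09, adjusted p = 9.88e-06), and the other steps of Hk1 did not pass the test. Its log2 fold change to 3 h of -0.68 did pass under some alternatives. These were glmTreat with library size alone (adjusted p = 0.00196) or with at least 10 counts in every library (0.0247), and the F-test (1.7e-05). Hk1 thus made up 95.2% ± 1.01 of hexokinase RPKM in naive cells, 54.1% ± 4.01 at 3 h and 82.2% ± 0.19 in plasmablasts, and Hk2 made up 3.54% ± 0.66, 45.8% ± 3.95 and 17.8% ± 0.25. In the share of counts rather than RPKM, Hk2 led Hk1 at 3 h with 50.8%.

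Hk3, an isoform known from myeloid cells, was above the floor in the naive libraries only, at 0.503 and 0.382 RPKM. From 3 h on it had at most 3 counts in each library, which was taken as the floor. Its level in naive cells was 36.4 times that at 3 h (95% counting interval 9.79 to 305, from 90 counts against 2; adjusted p = 0.000118). The summed myeloid markers were also higher in naive cells than at 3 h, with Lyz2 at 131 and 54.9 CPM in naive cells and at most 0.0527 at every later stage. Other myeloid markers did not stay low as Hk3 did. Itgam was at 8.74 and 5.08 CPM in naive and 24.3 and 21.8 in expanded cells. Adgre1 was at 10.7 and 10.6 CPM in naive and 13.1 and 13.4 in expanded cells. The part of myeloid cells in the Hk3 reads was not tested.

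**Figure D4:**
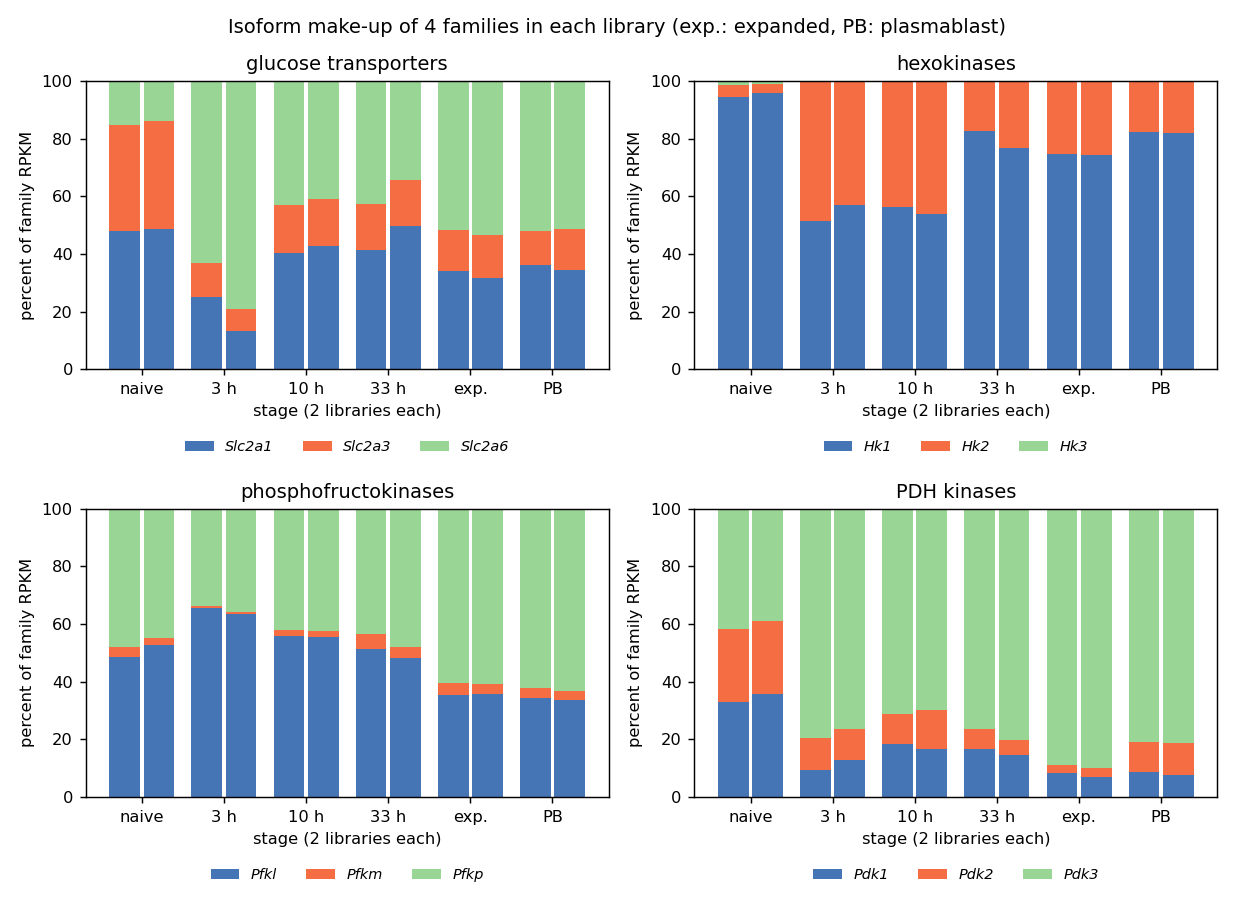
Stacked bars of the percent of family RPKM that each isoform gives in each of the 12 libraries, for glucose transporters, hexokinases, phosphofructokinases and PDH kinases. Slc2a6 and Hk2 widen at 3 h, Pfkp passes Pfkl in expanded cells and plasmablasts, and Pdk3 goes from 40.3% in naive cells to at least 70.5% on average afterwards.

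Gpi1, the phosphoglucose isomerase gene, was among the most abundant members. It fell by 0.96 to 3 h (SE 0.07, adjusted p = 7.66e-05), from 225 ± 8.25 to 115 ± 1.23 RPKM, and passed the test at no other step, with its highest mean of 243 ± 12.8 at 33 h.

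Phosphofructokinase commits sugar to glycolysis. Pfkl, the liver-type subunit, was at 24.9 and 28.0 RPKM in the naive libraries, 41.6 and 41.9 in those of 3 h, 44.2 and 40.8 in those of 10 h, 45.9 and 46.8 in those of 33 h, 35.03 and 36.6 in the expanded and 29.9 and 30.6 in the plasmablast libraries. Pfkp, the platelet-type subunit, was at 24.6 and 23.8 RPKM in the naive libraries, then 21.3 and 23.7 (3 h), 33.2 and 31.1 (10 h), 38.8 and 46.5 (33 h), 59.9 and 62.5 (expanded) and 54.2 and 57.8 (plasmablast). Neither passed the test at a single step, and Pfkp rose by 1.21 from naive cells to plasmablasts (SE 0.10, adjusted p = 1.01e-05). Pfkl gave 64.6% ± 1.58 of family RPKM at 3 h and 33.9% ± 0.55 in plasmablasts, where Pfkp gave 62.8% ± 0.71.

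Pfkm, the muscle-type subunit, was low but moved at all of the early steps. It was at 1.71 and 1.45 RPKM (naive), 0.411 and 0.390 (3 h), 1.69 and 1.41 (10 h), 4.41 and 3.92 (33 h), 3.97 and 3.49 (expanded) and 2.92 and 2.86 (plasmablast). It fell by 1.99 to 3 h (SE 0.20, adjusted p = 1.24e-05), then rose by 1.96 to 10 h (SE 0.20, adjusted p = 2.77e-05) and by 1.42 to 33 h (SE 0.15, adjusted p = 0.000207). At its highest share, at 33 h, it gave 4.49% of family RPKM.

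The PFKFB enzymes set the level of the sugar bisphosphate that activates phosphofructokinase. Pfkfb3 was at 9.24 and 9.20 RPKM in the naive libraries, 8.11 and 7.89 in those of 3 h, 8.63 and 8.38 in those of 10 h, 9.76 and 9.33 in those of 33 h, 9.30 and 8.84 in the expanded and 4.72 and 4.85 in the plasmablast libraries. It was near level until plasmablasts, where it fell by 0.92 (SE 0.09, adjusted p = 0.00136). Pfkfb4 took the other course, with 8.17 and 7.40 RPKM in the naive libraries, then 1.43 and 1.59 (3 h), 3.04 and 3.15 (10 h), 3.49 and 2.502 (33 h), 2.39 and 2.48 (expanded) and 2.25 and 2.32 (plasmablast). Both naive libraries stood far above all others: the fall to 3 h was 2.36 (SE 0.17, adjusted p = 2.3e-07) and that from naive cells to plasmablasts 1.77 (SE 0.16, adjusted p = 3.69e-06). Its rise of 1.03 from 3 h to 10 h (SE 0.17, adjusted p = 0.00969) was lost without 3 h replicate 1 and under DESeq2 (adjusted p between 0.055 and 0.189).

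Aldolase splits the bisphosphate into 2 trioses. Aldoa was at 324 and 321 RPKM (naive), 583 and 609 (3 h), 890 and 912 (10 h), 662 and 715 (33 h), 686 and 703 (expanded) and 635 and 655 (plasmablast). Its rise of 0.89 to 3 h (SE 0.07, adjusted p = 0.000408) was lost with library size alone (adjusted p = 0.0871), and by plasmablasts it stood 1.001 above naive cells (SE 0.07, adjusted p = 2.4e-05). Aldoc, the brain-type isoform, was at 7.40 and 8.55 RPKM in the naive libraries, 1.09 and 1.15 in those of 3 h, 5.18 and 4.26 in those of 10 h, 11.1 and 7.08 in those of 33 h, 5.61 and 5.13 in the expanded and 5.65 and 6.03 in the plasmablast libraries. The 3 h libraries were the lowest of all: Aldoc fell by 2.82 to 3 h (SE 0.23, adjusted p = 8.18e-07) and rose by 2.07 to 10 h (SE 0.24, adjusted p = 5.96e-05). Aldoa nevertheless gave at least 97.6% of aldolase RPKM at every stage.

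Tpi1, which interconverts the trioses, kept the naive level at 3 h (66.9 ± 2.25 and 62.9 ± 0.45 RPKM) and rose by 1.47 to 10 h (SE 0.10, adjusted p = 1.74e-06). Its further rise of 0.80 to 33 h (SE 0.10, adjusted p = 0.0406) was lost under 6 settings, among them without 10 h replicate 2 and without 33 h replicate 2 (adjusted p between 0.0631 and 0.378). Its highest mean was 313 ± 10.4 RPKM, in expanded cells.

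**Figure D5:**
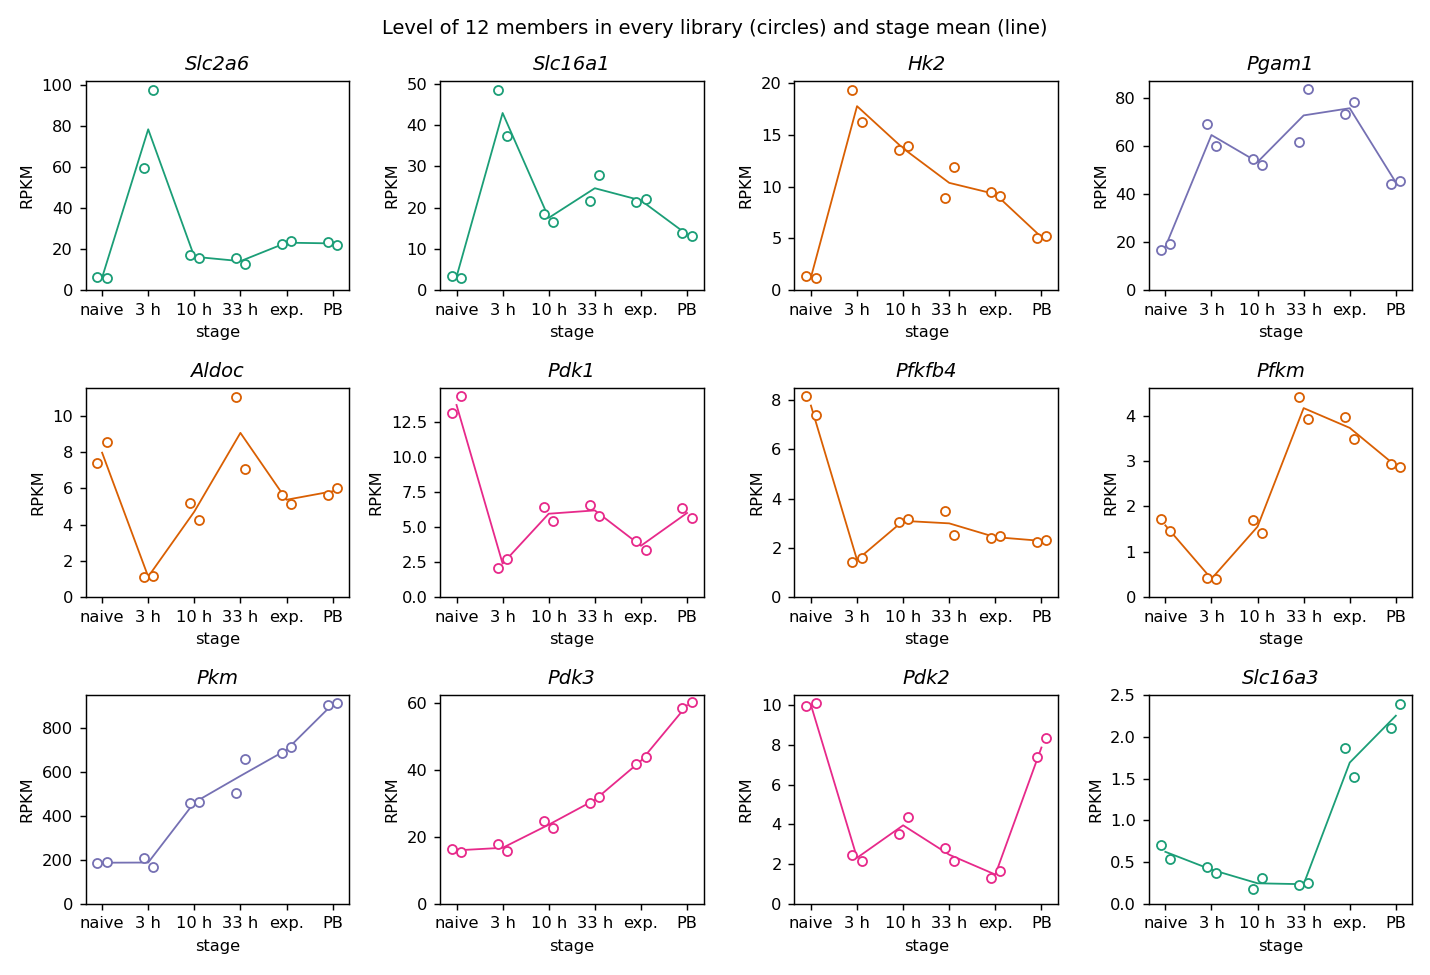
Level in RPKM (linear axes from 0) of 12 genes in every library (circles) with the stage mean (line), drawn after their values were seen to show the main courses. Slc2a6, Slc16a1 and Hk2 peak at 3 h, Aldoc, Pdk1, Pfkfb4 and Pfkm drop at 3 h, and Pkm, Pdk3 and Slc16a3 are highest in plasmablasts.

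Lower glycolysis, which yields the ATP, had the highest median log2 fold change of the 6 roles from 3 h to 10 h, at 1.22, with 5 of its 7 genes risen where 17.2% of all genes tested rose. The 5 were Gapdh, Pgk1, Eno1, Eno3 and Pkm. Pkm was at 185 and 188 RPKM in the naive libraries, then 209 and 166 (3 h), 459 and 461 (10 h), 503 and 658 (33 h), 683 and 714 (expanded) and 900 and 912 (plasmablast). The stages from 10 h on did not overlap and each was above the one before. Pkm rose by 1.30 to 10 h (SE 0.12, adjusted p = 6.04e-05) and by 2.28, or 4.86-fold, from naive cells to plasmablasts (SE 0.13, adjusted p = 1.45e-08).

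Eno1, the ubiquitous enolase, was at 71.7 and 72.6 RPKM (naive), 41.0 and 44.9 (3 h), 100.4 and 89.3 (10 h), 95.8 and 129.7 (33 h), 184.9 and 192.1 (expanded) and 122.4 and 125.8 (plasmablast). Its log2 fold change to 3 h of -0.75 did not pass the test (adjusted p = 0.0699), though it did under 6 alternatives (adjusted p between 0.00011 and 0.0438), and its rise of 1.14 to 10 h did (SE 0.12, adjusted p = 0.000384). Gapdh rose by 1.22 at that step (SE 0.13, adjusted p = 0.000256) and Pgk1 by 1.285 (SE 0.12, adjusted p = 5.15e-05). These 4 genes were called at no other single step. Eno1b, a near copy of Eno1 that the table counts as a gene of its own, read higher than Eno1 at every stage, with means of 126 RPKM in naive cells, 327 in expanded cells and 231 in plasmablasts. It rose by 1.15 from 3 h to 10 h (SE 0.12, adjusted p = 0.000378). Since the pair share much of their sequence, how reads fell between them is uncertain.

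Pgam1, the phosphoglycerate mutase gene, rose early instead. It was 18.1 ± 1.58 RPKM in naive cells and 64.8 ± 6.28 at 3 h, a rise of 1.84 (SE 0.13, adjusted p = 6.13e-07), and between 45.0 and 75.9 on average afterwards. No later step passed the test.

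The other enolases were low. Eno2, the neuronal type, was at 0 and 0.101 RPKM in the naive libraries, 0.663 and 0.721 in those of 3 h, 0.872 and 0.598 in those of 10 h, 0.429 and 0.222 in those of 33 h, 0.325 and 0.333 in the expanded and 0.0941 and 0.104 in the plasmablast libraries. The rise to 3 h was 3.94 (SE 0.67, adjusted p = 0.000342), from 0 and 7 counts to 32 and 59, and Eno2 gave at most 1.46% of the summed RPKM of Eno1, Eno2 and Eno3. Eno3, the muscle type, was at 6.19 and 5.58 RPKM in the naive libraries, then 2.37 and 5.33 (3 h), 12.0 and 10.8 (10 h), 8.79 and 7.14 (33 h), 1.45 and 1.81 (expanded) and 2.47 and 2.26 (plasmablast). It rose by 1.52 to 10 h (SE 0.26, adjusted p = 0.00278) and fell by 2.30 from 33 h to expanded cells (SE 0.28, adjusted p = 0.000284), and all day 4 libraries were below those of 33 h.

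At the end of the pathway, Ldha encodes the lactate dehydrogenase subunit that favours lactate. It was at 151 and 166 RPKM (naive), 385 and 427 (3 h), 392 and 355 (10 h), 616 and 775 (33 h), 693 and 696 (expanded) and 433 and 442 (plasmablast). It rose by 1.36 to 3 h (SE 0.11, adjusted p = 4.34e-06) and by 0.90 from 10 h to 33 h (SE 0.11, adjusted p = 0.0116). The later rise did not pass when 10 h replicate 2 was left out (0.83, adjusted p = 0.102), nor when 33 h replicate 2 was (0.73, adjusted p = 0.159).

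Ldhb encodes the subunit that favours pyruvate, and it appeared on day 4 alone. All libraries up to 33 h had at most 3 counts, the floor. Expanded cells had 0.568 and 0.657 RPKM and plasmablasts 0.704 and 0.692. The level in expanded cells was 74.9 times that at 33 h (95% counting interval 12.9 to 3008, from 59 counts against 1; adjusted p = 0.000465). Ldha still gave at least 99.8% of lactate dehydrogenase RPKM at every stage.

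PDH kinases switch off pyruvate dehydrogenase. Pdk1 was at 13.1 and 14.3 RPKM in the naive libraries, 2.08 and 2.67 in those of 3 h, 6.42 and 5.44 in those of 10 h, 6.58 and 5.75 in those of 33 h, 3.98 and 3.32 in the expanded and 6.31 and 5.66 in the plasmablast libraries. Its fall to 3 h was 2.51 (SE 0.15, adjusted p = 4.38e-08), and part of it was regained by 10 h with a rise of 1.31 (SE 0.15, adjusted p = 0.000226).

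Pdk2 was at 9.93 and 10.1 RPKM in the naive libraries, then 2.46 and 2.17 (3 h), 3.54 and 4.37 (10 h), 2.78 and 2.16 (33 h), 1.32 and 1.63 (expanded) and 7.41 and 8.33 (plasmablast). Naive cells and plasmablasts stood above all stages in between: it fell by 2.12 to 3 h (SE 0.18, adjusted p = 1.4e-06) and rose by 2.42, or 5.36-fold, from expanded cells to plasmablasts (SE 0.18, adjusted p = 7.78e-07). Pdk2 was the only member that glmTreat called up at that last step, and it was called under every alternative tried.

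Pdk3 was at 16.5 and 15.5 RPKM (naive), 17.8 and 15.8 (3 h), 24.8 and 22.6 (10 h), 30.3 and 31.9 (33 h), 41.7 and 43.8 (expanded) and 58.5 and 60.3 (plasmablast). No single step passed the test, but the libraries of successive stages from 3 h on did not overlap, and plasmablasts were 1.89 above naive cells (SE 0.10, adjusted p = 1.12e-08). Pdk3 gave 40.3% ± 2.07 of PDH kinase RPKM in naive cells, 78.1% ± 2.24 at 3 h, 89.3% ± 0.78 in expanded cells and 81.1% ± 0.12 in plasmablasts. By share of counts, Pdk3 gave 25.6% in naive cells, where Pdk1 led with 56.2%.

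Pdha1, the catalytic subunit gene of pyruvate dehydrogenase, was at 42.1 and 45.7 RPKM in the naive libraries, 50.1 and 47.0 in those of 3 h, 58.6 and 59.8 in those of 10 h, 58.0 and 62.6 in those of 33 h, 82.0 and 75.1 in the expanded and 42.8 and 42.1 in the plasmablast libraries. Expanded cells were the highest, and from there the gene fell by 0.89 to plasmablasts (SE 0.09, adjusted p = 0.00225), back to the range of naive cells.

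Hif1a encodes the oxygen-regulated subunit of a transcription factor that drives many glycolytic genes. Its mean level was 35.6 ± 0.16 RPKM before LPS, then 42.6 ± 0.68 (3 h), 29.0 ± 0.65 (10 h), 22.6 ± 2.15 (33 h), 18.5 ± 0.19 (expanded) and 16.1 ± 0.52 (plasmablast). No 2 stages overlapped. It passed the test at no single step and fell by 1.15 from naive cells to plasmablasts (SE 0.09, adjusted p = 6.06e-06). The Hif1a protein was not measured.

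Of the pentose phosphate genes, 5 of 7 rose from 3 h to 10 h (median log2 fold change 0.79), where 17.2% of all genes tested rose, and 2 of the 5 calls depended on the settings. Tkt, transketolase, rose by 1.14 (SE 0.10, adjusted p = 5.59e-05), from 167 ± 26.7 to 368 ± 4.05 RPKM. Taldo1, transaldolase, rose by 1.03 (SE 0.08, adjusted p = 5.02e-05) after a fall of 1.06 to 3 h (SE 0.08, adjusted p = 1.35e-05), and Pgls, the lactonase gene, rose by 1.01 (SE 0.11, adjusted p = 0.0012). The rises of the isomerase Rpia (0.79) and the epimerase Rpe (0.78) had adjusted p-values of 0.0338 and 0.0246 and were each lost under 6 of the alternatives.

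The oxidative branch, which makes the NADPH and to which Pgls also belongs, was less uniform. G6pdx, its entry enzyme, had its lowest mean in naive cells, 30.7 ± 1.47 RPKM, and its highest of 44.9 ± 0.26 by 10 h, and passed the test at no step. Pgd, which makes ribulose phosphate, was at 55.5 and 59.95 RPKM in the naive libraries, then 96.1 and 107.5 (3 h), 112.3 and 102.7 (10 h), 93.8 and 103.4 (33 h), 104.7 and 99.7 (expanded) and 55.8 and 56.0 (plasmablast). The stages from 3 h to expanded cells were close to each other, and the outer stages were lower. Pgd rose by 0.82 to 3 h (SE 0.09, adjusted p = 0.00723), a call lost under 4 alternatives, and fell by 0.87 from expanded cells to plasmablasts (SE 0.09, adjusted p = 0.00453), which DESeq2 did not call (adjusted p = 0.0631).

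The falls to 3 h came with the lower myeloid and erythroid marker sums given above, and the part of those cells in the falls of Aldoc, Pdk1, Pfkfb4, Pdk2, Pfkm, Taldo1 and Gpi1 was not tested. The 4 falls from expanded cells to plasmablasts (Pfkfb3, Pdha1, Pgd and Hk2) came with a summed plasmablast marker level that was 16400 CPM or more, against 2191 to 2536 CPM in expanded cells. Their part was not tested either.

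Further genes of the pathway were taken from lists of other isoforms, transporters, pyruvate users, pentose phosphate genes, glycogen and hexose side branches, and the HIF pathway. Of these 83 genes 61 were tested. They split into 14 up and 20 down by 3 h, 16 up and 6 down by 10 h, 5 up and 1 down by 33 h, 5 up and 2 down by expanded cells, and 15 up and 1 down by plasmablasts, to be read against the same background shares. At the last step 14.1% of all genes tested rose. The genes named below are only those called with an absolute log2 fold change of at least 2 at a step.

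By 3 h Txnip, which restrains glucose uptake, fell by 3.22 (SE 0.14, adjusted p = 2.02e-09), from 191 and 197 RPKM to 17.8 and 23.6, and it stayed at or below 24.2 RPKM in every later library. Other falls had log2 fold changes of -2.55 for the hexose carrier Slc2a8, -2.87 for Slc2a9, -3.10 for the monocarboxylate carrier Slc16a7, -2.002 for the bisphosphoglycerate mutase Bpgm and -2.87 for H6pd, which makes NADPH in the endoplasmic reticulum. They were -2.06 for glycogen synthase Gys1, -2.35 for ketohexokinase Khk, -3.19 for the mutarotase Galm and -2.90 for the HIF subunit Hif3a. Tktl1, also called down, went from 13 and 18 counts to the floor, with 3 and 2. Of the 14 genes called up by 3 h, those that rose by at least 2 were Egln3, an oxygen sensor of the HIF pathway (3.68, SE 0.43), and Epas1, a HIF subunit (2.07, SE 0.60).

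By 10 h Prps2, which makes the ribose donor for nucleotides (2.00, SE 0.15), Galk1 (2.10, SE 0.19) and Galm (2.15, SE 0.65) rose. The phosphatase Pdp1, which counters PDH kinases (-2.18, SE 0.15), the glycogen phosphorylase Pygl (-3.22, SE 0.39) and Epas1 (-3.46, SE 0.67) fell. On day 4 Emb, a partner of monocarboxylate transporters, rose by 2.27 from 33 h to expanded cells (SE 0.23), with Egln3 (2.42, SE 0.21) and Epas1 (2.51, SE 0.57). In plasmablasts Epas1 rose by a further 3.40 (SE 0.38, adjusted p = 2.06e-05) to 1.43 and 1.71 RPKM, Tktl1 rose by 3.14 (SE 0.65, from 3 and 5 counts to 22 and 30) and Hif3a fell by 3.00 (SE 0.37).

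Some of these levels are uncertain because genes have near copies. Of all 81-base windows of the transcript, the read length, 79.8% of Gapdh, 67.4% of Pgk1, 63.8% of Eno1 and 40.4% of Pgam1 occur in another gene, mostly pseudogenes, and 16.5% of Pkm and 14.9% of Ldhb do. How reads with several matches were counted is not given in the sources used here. The RPKM of these genes may thus be too low or too high beside those of Aldoa or Ldha. Exons that overlap another gene made up 20.6% of Pgls, 17.9% of Rpe, 16.2% of Pdha1, 15.3% of Pkm and 13.6% of G6pdx, and use of strand in counting is not given either.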

How the data were processed

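Per the labels and the study's methods, polyA RNA from sorted B cells was made into TruSeq libraries and sequenced on an Illumina NextSeq as paired 81-base reads, which the authors aligned to mm10 with Rsubread and counted per Entrez gene with featureCounts. The deposited values are these raw counts, unfiltered, with exon lengths. The submitters' processing notes also name CASAVA 1.8.2. Here, R 4.3.3 and edgeR 4.0.16 were used: IDs without a RefSeq match, mitochondrial, rRNA and Y chromosome genes and variable immunoglobulin segments were removed, while X chromosome genes, which the study removed, were kept because 4 members are X-linked. filterByExpr and TMM were followed by a robust quasi-likelihood fit of all 12 libraries and glmTreat against 1.5-fold, with Benjamini-Hochberg adjustment. RPKM used TMM-scaled library sizes. At most 3 counts in both libraries of a stage was called the floor, for which counting intervals cover counting error only. With 2 libraries a stage, a permutation test of a single value cannot go below p = 0.333 and was not used. Steps were tested on simulated data. The 38 genes, the other lists, the comparisons and the rule for named genes were chosen with earlier results of these data known. That rule gave full statistics to the 3 largest rises and falls per comparison among called members, and all library values to these and to leading isoforms. Alternatives were DESeq2 1.42.0 (size factors and Wald test), library size alone, other filters on counts and genes, the F-test, no robust mode, the 4 compared libraries only, a replicate term and leaving out each library.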

Additional observations from a re-analysis of the deposited data

How the results depend on the processing

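For up to 3 of the largest called rises and falls of each comparison, 396 of 399 log2 fold changes under the alternatives kept direction and call, 3 kept direction but lost the call (Pgd under DESeq2's Wald test in plasmablasts, Ldha at 33 h without either of 2 libraries) and 0 reversed. Over all members called, smaller changes included, the call was lost under at least 1 alternative for 4 by 3 h, 4 by 10 h, 2 by 33 h, 1 by expanded cells, 3 by plasmablasts and 7 over the whole course, some because the gene was then not tested. The quasi-likelihood F-test, which has no fold threshold, called 13 members down from naive cells to 3 h, 6 down from 3 h to 10 h, 13 up and 8 down from 10 h to 33 h, 9 up and 8 down from 33 h to expanded cells, and 5 up and 14 down from expanded cells to plasmablasts. Of all 13207 genes tested, it called 4777 down by 3 h and 3965 down by 10 h. By 33 h these were 3055 up and 2932 down, and by expanded cells 2444 up and 2761 down. By plasmablasts they were 3603 up and 3913 down. In that last step, library size alone gave 12 members down (3025 of all genes) and DESeq2's Wald test 2 (1023 of all genes). With at least 10 counts in every library, 1 member rose from 33 h to expanded cells, since Ldhb was then not tested. Leaving out a library gave 2 to 5 members up from 10 h to 33 h, the lowest without 10 h replicate 2, and 1 to 2 down from 33 h to expanded cells, the highest without 33 h replicate 2 (the cause was not tested). No effect shared by replicate number was seen: of 15 pairs of stages, 0 had deviations correlated above 0.1 (-0.135 to 0.0947). This does not tell whether the duplicates were paired by origin. A replicate block gave 8 up and 8 down by 3 h, 15 up and 2 down by 10 h, 4 up and 0 down by 33 h, 2 up and 1 down in expanded cells, 1 up and 4 down in plasmablasts, and 17 up and 7 down over the whole course, the counts without it. Shares of counts in place of RPKM moved 93 of 138 isoform shares by more than the spread between libraries, and another isoform then led in 4 of 54 families and stages. Depth limits Hk3, Ldhb, Eno2 and Tktl1, which rest on few counts. The changes of Epas1 and Galm are imprecise too, with SEs of up to 0.67 and 0.65.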
